A study of Mus musculus with 4 samples.

Results

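HOX cluster genes encode the transcription factors that give cells along the body axis their positional identity. The members described here were all genes whose symbol is Hox, a letter a to d and a number, on probe sets that the platform annotation gives 1 gene symbol. The rule found 33 such genes among 18194 genes with a symbol on the array, and RefSeq lists 39 protein-coding HOX genes in mouse. Hoxb8 and Hoxd4 had no value of their own, since they lay on probe sets that also name a neighbouring HOX gene, and the remaining genes were not analysed here.

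RNA came from ST2, a mouse bone marrow stromal line of BALB/c origin with fibroblast-like shape that grows without limit, and was hybridised to Affymetrix Mouse Genome arrays. Control cells, on 1 array, stayed at 37 °C, and on the other 3 arrays the cells had received LIPUS (low-intensity pulsed ultrasound, given clinically to healing fractures) of 25 mW per square cm over 20 min and were then cultured for 0.5, 1 or 3 h. All cells, control and LIPUS alike, were grown in RPMI medium with 10% serum at 37 °C and 5% CO2. The labels do not say when control cells were harvested or whether they were handled without ultrasound beside the others. Each group was 1 array, so no difference has a replicate check, no test was possible, and the word higher or lower describes these arrays.

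Mammalian HOX genes lie in 4 clusters, Hoxa on chromosome 6, Hoxb on 11, Hoxc on 15 and Hoxd on 2 in the mouse. In the embryo, low-numbered genes are active towards the head and high-numbered genes towards the tail and the limb ends, an arrangement called colinearity. Fibroblasts and stromal cells keep much of the HOX pattern of their site of origin in culture. HOX proteins bind DNA with TALE homeodomain partners of the PBX and MEIS families, while Polycomb proteins hold HOX genes silent and Trithorax proteins hold them active.

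Signals are log2 values as deposited, and the median of all values on the 4 arrays, 5.23, served as a floor. A gene counted as measured when its probe set, the brightest on average where it had several, lay above the floor on at least 1 array. Probe sets differ in sensitivity, so levels of different genes were not ranked. The 4 arrays had medians from 5.21 to 5.25, and 64.2% of all genes were measured.

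In total, 17 of the 33 HOX genes (51.5%) were measured, and they were unevenly spread over the clusters. Hoxc had 7 of 7 members above the floor, Hoxa 5 of 9, Hoxb 4 of 9 and Hoxd 1 of 8. Of the 17, 16 were above the floor on all 4 arrays, and Hoxb2 was above it on 3. The 16 members under the floor had signals between 2.29 and 5.10 on every array. No test was made of the difference between clusters.

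**Figure D1:**
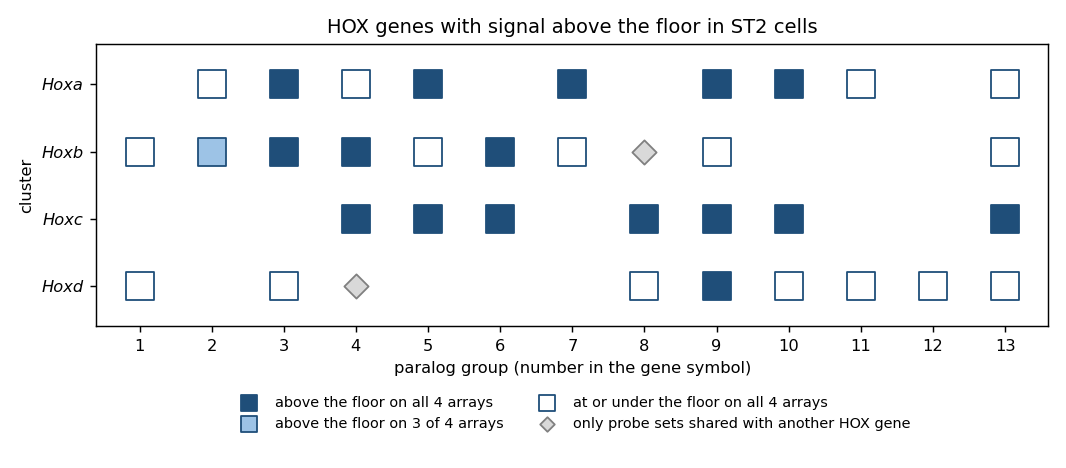
Map of the analysed HOX genes by cluster (rows) and paralog group (columns), with the state of each gene on the 4 arrays. Dark squares mark genes above the floor of 5.23 on the log2 scale on all 4 arrays, the pale square of Hoxb2 on 3, open squares genes under it and diamonds genes on shared probe sets, and all 7 Hoxc members with a value are dark, against 1 of 8 in Hoxd.

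By position, 3 of 7 members of paralog groups 1 to 3 were measured, 8 of 12 of groups 4 to 8, 5 of 7 of groups 9 and 10, and 1 of 7 of groups 11 to 13. The 1 measured gene of the last groups was Hoxc13, a regulator of hair keratin genes. A stricter floor at the 75th percentile of all values, 7.72, left 7 members (21.2%), where 38.4% of all genes were above it. The 7 were Hoxa9, Hoxa10, Hoxc6, Hoxc8, Hoxc9, Hoxc10 and Hoxc13. None of the Hoxb or Hoxd members reached that floor. With the floor at the 25th percentile, 3.73, 27 members (81.8%) were above it, near the 85.9% of all genes. They included 8 of Hoxb and 4 of Hoxd, so the state of the dim genes depends on the floor.

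In the Hoxa cluster the measured genes were Hoxa3, Hoxa5, Hoxa7, Hoxa9 and Hoxa10. Hoxa9, which patterns the lower thoracic region and acts in blood progenitors, had log2 signals of 9.15 in control cells and 9.09, 9.48 and 9.38 at 0.5, 1 and 3 h. Hoxa10, a gene of the lumbar region and uterus, had 9.02 in control cells and 9.12, 9.26 and 9.42 at the same times. Both stayed far above the floor on every array. Their next neighbour, Hoxa11, which shapes the forearm and lower leg, had 4.16, 4.07, 3.81 and 4.23 in the same order of arrays, all under the floor. Hoxa13, which shapes hand and foot, was also under it, between 3.68 and 3.91. Hoxa7, a thoracic gene, was measured and nearly flat, at 6.69 in control cells and 6.79, 6.70 and 6.75 at the 3 times. At the other end, Hoxa2, which patterns the hindbrain and second pharyngeal arch, lay between 2.87 and 3.21, and Hoxa4 came close to the floor, at 5.10 on both the control and the 0.5 h array.

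The promoter windows of Hoxa10 and Hoxa11 are shown because the 2 genes are neighbours on opposite sides of the floor, and that of Hoxa5 because Hoxa5 had the second highest ratio to control among the members at 1 h. Each window runs from 250 bases before to 50 bases after a start site of RefSeq, build GRCm38.p6, minus strand, and is written 5′ to 3′ with CpG dinucleotides in capitals. The windows are chr6:52204538-52204837 for Hoxa5, chr6:52240805-52241104 and chr6:52234890-52235189 for the upstream and downstream starts of Hoxa10, and chr6:52245761-52246060 for Hoxa11.
Hoxa5: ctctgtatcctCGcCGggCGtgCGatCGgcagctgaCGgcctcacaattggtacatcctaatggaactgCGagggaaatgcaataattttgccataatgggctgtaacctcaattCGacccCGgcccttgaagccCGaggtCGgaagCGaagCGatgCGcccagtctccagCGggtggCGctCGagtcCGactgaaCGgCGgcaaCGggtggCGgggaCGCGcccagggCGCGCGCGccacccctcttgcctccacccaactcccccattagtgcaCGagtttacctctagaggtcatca
Hoxa10 upstream start: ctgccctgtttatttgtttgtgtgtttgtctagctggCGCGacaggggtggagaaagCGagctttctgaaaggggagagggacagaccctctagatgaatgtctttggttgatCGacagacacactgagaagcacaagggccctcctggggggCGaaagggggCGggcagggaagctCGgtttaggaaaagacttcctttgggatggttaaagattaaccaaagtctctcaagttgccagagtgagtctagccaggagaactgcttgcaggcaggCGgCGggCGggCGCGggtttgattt
Hoxa10 downstream start: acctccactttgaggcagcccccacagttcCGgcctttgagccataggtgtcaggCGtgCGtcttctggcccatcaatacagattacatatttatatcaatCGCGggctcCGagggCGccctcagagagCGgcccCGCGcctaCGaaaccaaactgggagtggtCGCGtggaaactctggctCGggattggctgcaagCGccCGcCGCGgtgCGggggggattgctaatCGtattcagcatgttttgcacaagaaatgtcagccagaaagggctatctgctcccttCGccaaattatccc
Hoxa11: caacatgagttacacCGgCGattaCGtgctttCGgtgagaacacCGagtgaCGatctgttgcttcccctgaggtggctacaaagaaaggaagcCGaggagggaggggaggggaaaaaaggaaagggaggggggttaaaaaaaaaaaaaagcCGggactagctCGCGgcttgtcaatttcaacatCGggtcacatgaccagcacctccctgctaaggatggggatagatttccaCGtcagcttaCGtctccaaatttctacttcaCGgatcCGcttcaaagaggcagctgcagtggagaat

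The Hoxa5 window held 29 CpG dinucleotides, the Hoxa10 windows 12 and 21, and the Hoxa11 window 15, where the median over 32851 promoter windows was 7. The table held 24 windows of HOX genes, for 19 of the 33 members and 3 others. Hoxb6 and Hoxc6 had no window, and Hoxc4 was the only Hoxc gene with one. The CpG and motif counts therefore leave out Hoxb6, Hoxc6 and most of the Hoxc cluster. The 9 windows of measured members had from 4 to 29 CpG dinucleotides (median 14) and the 12 windows of members under the floor from 4 to 45 (median 17.5), so the ranges overlapped widely.

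Of motifs searched on both strands, with hits of different motifs counted separately even where they overlap, TGACGTCA (the cyclic AMP response element) was in 0 of the 24 HOX windows and in 1.79% of all windows. TGANTCA (AP-1) was in 1, that of an upstream start of Hoxd11, and in 7.81% of all windows. GAANNTTC (heat shock element) was in 1, that of Hoxa3, and in 7.86% of all windows. TGATNNAT, bound by PBX and HOX proteins together, was in 4, those of Hoxa2, Hoxb1, Hoxb8 and a downstream start of Hoxd11, and in 8.85% of all windows. None of these genes was measured. TATAAA was in 4, those of the downstream start of Hoxa10 and of Hoxb8, Hoxd4 and Hoxd13, and in 13.6% of all windows. A match is a run of letters, not a site known to be bound.

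In the Hoxb cluster Hoxb2, Hoxb3, Hoxb4 and Hoxb6 were measured. Hoxb3, a hindbrain and neck gene, had log2 signals of 6.38 in control cells and 6.36, 6.33 and 6.39 at 0.5, 1 and 3 h. Hoxb4, known for expanding blood stem cells, had 6.07, 6.08, 6.01 and 6.07 in the same order. By these probe sets neither varied by more than 0.08 over the 4 arrays. A second Hoxb3 probe set above the floor had 6.115 in control cells and 5.93, 6.05 and 6.03 at the 3 times, lowest at 0.5 h. Hoxb2, another hindbrain gene, had 5.77 in control cells and 5.18, 5.53 and 5.41 at the 3 times, so the control array was the highest and the 0.5 h array dipped under the floor. Hoxb1, Hoxb5, Hoxb7, Hoxb9 and Hoxb13 were under the floor on every array. A probe set shared by Hoxb7 and Hoxb8 had signals from 5.97 to 6.06, and it was assigned to neither gene.

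All 7 Hoxc members with a value were measured on every array. Hoxc10, a gene of the lumbar region and hindlimb, had log2 signals of 10.75 in control cells and 10.86, 10.91 and 11.004 at 0.5, 1 and 3 h. Hoxc9, a thoracic gene, had 8.90, 8.96, 9.04 and 9.17 in the same order. Hoxc8, which acts in the thoracic skeleton, had 8.67, 8.53, 8.78 and 8.92. For these 3 genes the 3 h array was the highest. Hoxc13 had 9.18 in control cells and 9.14, 9.44 and 9.31 at the 3 times. Hoxc4 had 7.02, 7.01, 7.01 and 7.11 in the same order. Hoxc5 had 6.88, 6.94, 6.88 and 6.80, so both stayed within a narrow range.

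In the Hoxd cluster, whose genes pattern limbs and digits, Hoxd9 alone of 8 members with a value was measured, at 5.76 in control cells and 5.78, 5.29 and 5.52 at 0.5, 1 and 3 h. The 1 h array was the lowest and lay close to the floor. Hoxd1, Hoxd3, Hoxd8, Hoxd10, Hoxd11, Hoxd12 and Hoxd13 were under the floor on every array. The highest value among these 7 was 4.78, for Hoxd13 in control cells. Of 2 probe sets shared by Hoxd3 and Hoxd4, 1 lay above the floor, from 5.74 to 6.01, and was assigned to neither.

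**Figure D2:**
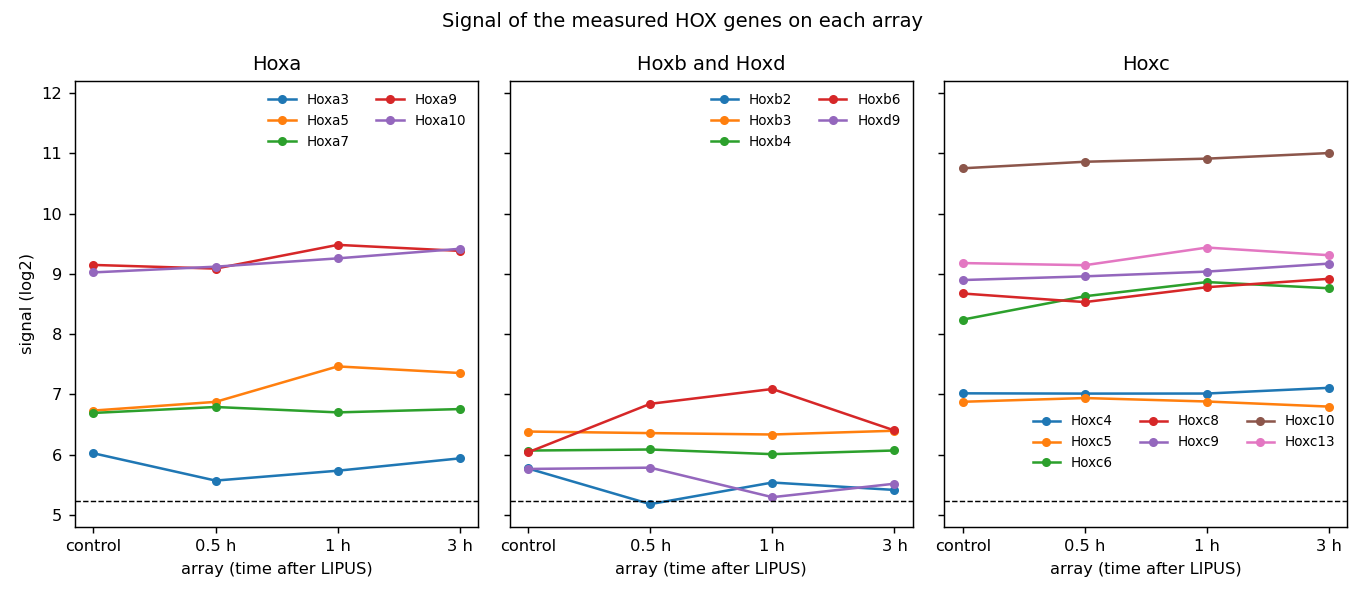
Log2 signal (vertical axis) of the 17 measured HOX genes on the control array and at 0.5, 1 and 3 h after LIPUS (horizontal axis), 1 point per array, with the floor of 5.23 as a dashed line. Hoxb6 is highest at 1 h, at 7.09, against 6.04 in control cells, while Hoxb3 and Hoxb4 run flat by the 1 probe set shown for each.

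The comparison of each LIPUS array with the control array asked whether the pattern shifts within hours of 1 exposure. It used a fixed rule of size, at least 2-fold, which is 1 on the log2 scale, and a smaller size of 1.5-fold. Values under the floor were raised to it. At 0.5 h, 0 of 17 measured members were at least 2-fold higher (0.138% of 11575 genes were) and 0 were lower (0% of genes), while 1 was at least 1.5-fold higher (0.371%) and 0 were lower (0.104%). At 1 h, 1 member was at least 2-fold higher (0.191% of 11498 genes) and 0 were lower (0%), while 3 were at least 1.5-fold higher (0.948%) and 0 were lower (0.33%). At 3 h, 0 were at least 2-fold higher (0.0691% of 11575 genes) and 0 were lower (0%), while 1 was at least 1.5-fold higher (0.346%) and 0 were lower (0.181%). The 3 comparisons share the control array, so these counts are not independent of each other.

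The member past 2-fold was Hoxb6, which is active in the trunk and the lateral plate from which limbs grow. Its log2 signal was 6.04 in control cells and 6.84, 7.09 and 6.40 at 0.5, 1 and 3 h. The control array was the lowest and the 1 h array the highest. Against control, Hoxb6 was higher 1.75-fold (0.5 h), 2.07-fold (1 h) and 1.29-fold (3 h), or by 0.81, 1.05 and 0.36 on the log2 scale. Hoxb6 has 1 probe set, so no other probe set bears on this course.

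At 1 h, 19 of 11498 genes had a ratio as high as that of Hoxb6 or higher (0.165%). Among 1617 genes whose mean signal lay within 0.5 of its own, 6 did (0.371%). Hoxb6 was placed among them after its values were seen, as the member with the highest ratio, so these shares are ranks and not probabilities. The only error 1 array per group allows is technical, from genes with at least 2 probe sets above the floor on every array. For the 2 brightest, the SD of the difference between their log2 ratios was divided by the square root of 2. This gave an SD per probe set, which is smaller than the SD of the difference. It was 0.125 at 0.5 h, 0.182 at 1 h and 0.157 at 3 h for genes whose dimmer probe set had a mean signal from 6 to 7. It covers differences between probe sets and leaves out those between cultures. Against the mean of the other 3 arrays in place of the control, Hoxb6 was at 0.33 at 0.5 h, at 0.66 at 1 h, short of 2-fold, and at −0.26 at 3 h, where the sign turned. That mean includes LIPUS arrays, so by construction a difference that the LIPUS arrays share is smaller against it.

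By their own probe sets, the genes beside Hoxb6 were under the floor on all 4 arrays, while the probe set shared by Hoxb7 and Hoxb8 was above it. Hoxb5 lay between 4.70 and 4.76 and Hoxb7 between 3.75 and 4.02. Hoxb5os, a noncoding RNA gene whose RefSeq span overlaps Hoxb6 and Hoxb5, was also under it, at 5.14 in control cells and 5.02, 4.55 and 5.05 at the 3 times.

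Hoxa5, which is needed for lung and upper thoracic development, had log2 signals of 6.73 in control cells and 6.87, 7.46 and 7.35 at 0.5, 1 and 3 h. The 1 h and 3 h arrays were high, and the ratios to control were 1.11-fold, 1.66-fold and 1.54-fold. Its other probe set, of the kind that Affymetrix marks as able to match further transcripts, was flat, at 6.41 in control cells and 6.38, 6.37 and 6.39 at the 3 times. The mean of both probe sets gave log2 ratios of 0.35 at 1 h and 0.30 at 3 h, short of 1.5-fold, so the size of the Hoxa5 difference rests on 1 probe set.

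Hoxc6, a thoracic gene, had log2 signals of 8.24 in control cells and 8.63, 8.86 and 8.76 at 0.5, 1 and 3 h, all 3 LIPUS arrays above the control. It was 1.31-fold, 1.54-fold and 1.43-fold higher. The probe set behind these values is also of the kind marked as able to match further transcripts, and a second, without that mark, gave log2 differences of 0.33, 0.55 and 0.37. Another, with a signal of 5.17 in control cells, gave 0.19, 0.37 and 0.19. All 3 probe sets were therefore highest at 1 h. At 1 h the ratio of the first was 0.62, and it was 0.58 after quantile normalization or cyclic loess, just short of 1.5-fold.

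**Figure D3:**
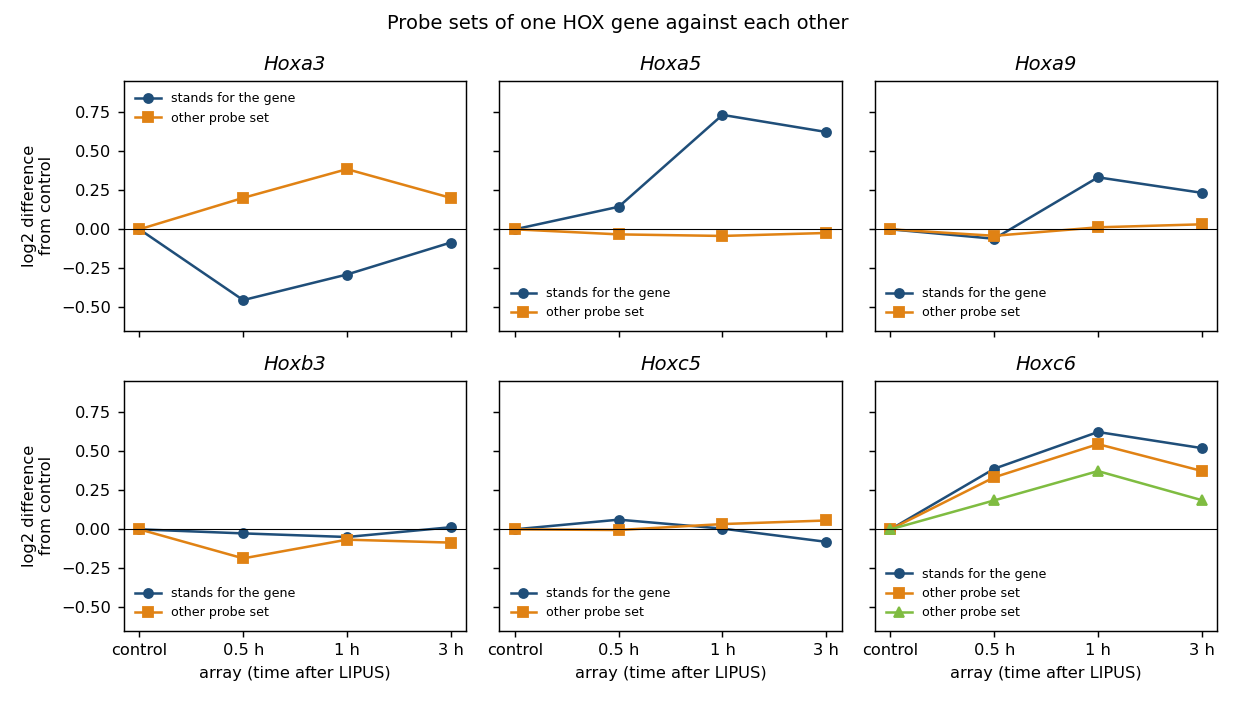
Log2 difference from control (vertical axis) of each probe set with a signal above the floor, for the 6 measured HOX genes with more than 1 such probe set, by array (horizontal axis). The 3 probe sets of Hoxc6 move alike, those of Hoxa5 part at 1 h (0.73 and −0.04), and those of Hoxa3 differ in sign.

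Hoxa3, which forms the thymus and parathyroid, was lower at all 3 times by its brightest probe set, at 6.02 in control cells and 5.57, 5.73 and 5.94 at 0.5, 1 and 3 h. A second probe set above the floor went the other way, with log2 differences of 0.20, 0.39 and 0.20, so Hoxa3 has no settled direction. This second probe set is also of a kind marked as able to match further transcripts. Hoxb2 was lower by at least 0.54 on the log2 scale at 0.5 h, where its signal was under the floor, by 0.23 at 1 h and by 0.36 at 3 h. With the floor at the 25th percentile or without a floor, Hoxb2 passed 1.5-fold lower at 0.5 h. Hoxd9 had log2 ratios of 0.02, −0.47 and −0.24.

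**Figure D4:**
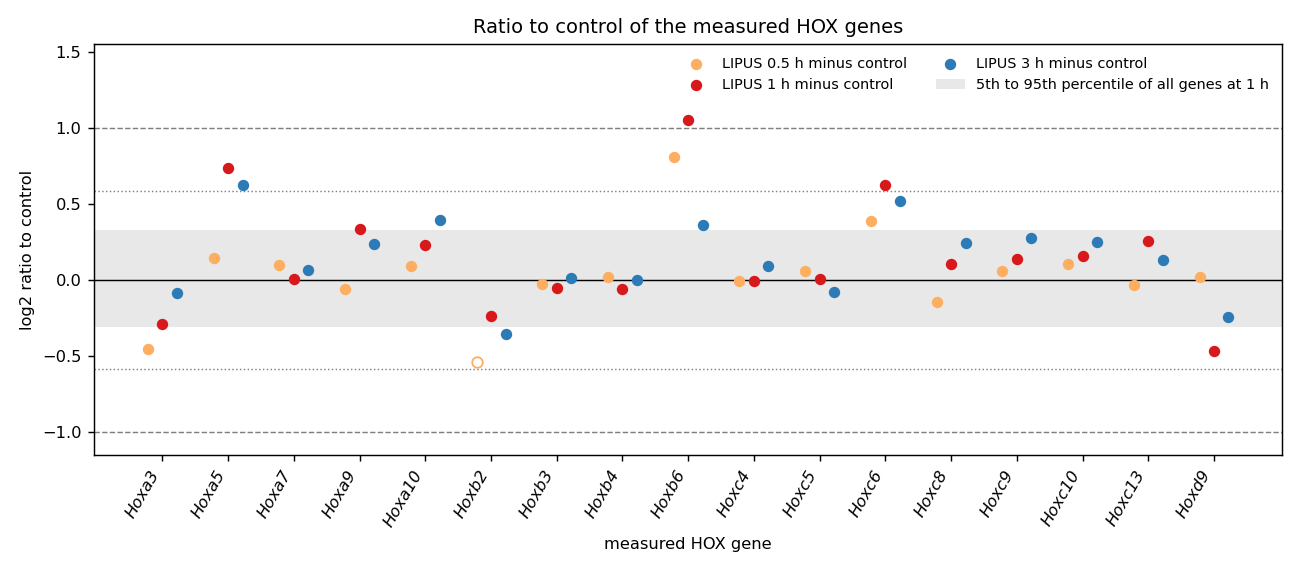
Log2 ratio to control (vertical axis) of the 17 measured HOX genes at 0.5, 1 and 3 h, with dotted lines at 1.5-fold and dashed lines at 2-fold. The shaded band spans the 5th to 95th percentile of all genes at 1 h, −0.31 to 0.33, and the open symbol of Hoxb2 is a bound set by the floor. Hoxb6 at 1 h is the 1 point past 2-fold.

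The 7 members above the stricter floor had ratios of 1 sign at the later times, and Hoxc6 at 1 h was the 1 past 1.5-fold. At 1 h all 7 were above 0, with log2 ratios from 0.10 for Hoxc8 to 0.62 for Hoxc6 and a median of 0.23, where 63.6% of 6928 genes above that floor were above 0 with a median of 0.05. At 3 h all 7 were again above 0, from 0.13 for Hoxc13 to 0.52 for Hoxc6 with a median of 0.25, against 54.9% of 6862 genes and a median of 0.02. At 0.5 h 4 of 7 were above 0, with a median of 0.06. Of these genes Hoxa10 had log2 ratios of 0.09, 0.23 and 0.39 at 0.5, 1 and 3 h, Hoxc9 0.06, 0.14 and 0.27, and Hoxc10 0.11, 0.16 and 0.25. At 3 h the 95th percentile of genes above that floor was 0.27, so the values of Hoxc9 and Hoxc10 were near it and that of Hoxa10 above it. Hoxa9 had 0.33 and 0.23 at 1 and 3 h, while its other probe set was flat, with 0.01 and 0.03.

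Over all 17 measured members the median log2 ratio was 0.02 at 0.5 h, 0.10 at 1 h and 0.13 at 3 h, where that of all genes was 0.01, 0.02 and 0.01. In the same order 10, 11 and 13 of 17 were above 0, against 52.7%, 54.6% and 52.2% of all genes. These medians depended on the floor: at the 25th percentile they were −0.000795 at 1 h, with 13 of 26 members above 0, and 0.04 at 3 h, and without a floor they were 0 at 1 h and 0.01 at 3 h. By the probe set that stood for each gene, Hoxa7, Hoxb3, Hoxb4 and Hoxc4 each varied by at most 0.1 over the 4 arrays.

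Array controls also differed between the arrays, some at all 3 times and others at 1 and 3 h. The 12 probe sets for bacterial transcripts spiked in with a poly-A tail had a median log2 ratio to control of −0.04, 0.32 and 0.37 at 0.5, 1 and 3 h, with 4 of 12 higher at 0.5 h and 12 of 12 at each later time. For 18S ribosomal RNA, 3 probe sets gave medians of 0.96, 1.91 and 1.79. The part of either in the HOX ratios was not tested.

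The labelled cell type was checked against its markers, with 9 of 10 stromal genes measured, among them Col1a1, Cxcl12 and Prrx1, and Thy1 under the floor. Of 8 haematopoietic markers with a value, 3 were measured, and the pan-leukocyte gene Ptprc lay between 2.41 and 2.91. Their summed linear signal ran from 322 to 335 on the LIPUS arrays, against 293 on the control array, and Lyz2 had log2 ratios of 0.30, 0.38 and 0.47 at 0.5, 1 and 3 h. Cd3e had 0.06, 0.20 and −0.02 and Spi1 0.02, 0.07 and −0.15 at those times. Summed stromal signal ran from 55140 to 57840 on the LIPUS arrays, against 55480 on the control array. Of 5 endothelial markers 1 (Kdr) was measured, on all 4 arrays, and the others, among them Pecam1 and Cdh5, were under the floor. Measured too were 2 of 4 epithelial markers (Epcam and Krt8) and 1 of 2 neural crest markers with a value (Sox10). The part of other cell types in the HOX values was not tested, and in bulk RNA fewer expressing cells and less RNA per cell cannot be told apart.

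HOX partners were mostly measured. Of 8 TALE genes with a value 7 were measured, and 0 of 7 passed 1.5-fold at any time. Of all genes 0.371%, 0.948% and 0.346% were at least 1.5-fold higher at 0.5, 1 and 3 h, and 0.104%, 0.33% and 0.181% lower, so a count of 0 in this list and those after it is near the background. Pbx2, which encodes a partner that binds DNA with HOX proteins, had log2 signals of 8.85 in control cells and 8.60, 8.85 and 8.93 at 0.5, 1 and 3 h. Pbx3, of the same family, and Pknox1, another TALE gene, had ratios of 0.26 and 0.11 at 1 h, and Meis2 0.15. The list medians were −0.04, 0.00 and 0.08.

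All 20 Polycomb genes with a value were measured and 0 passed 1.5-fold at any time, again near the background, with log2 ratios from −0.34 to 0.34. Ezh2, the methyltransferase of lysine 27 of histone H3, had signals of 10.35 in control cells and 10.37, 10.45 and 10.38 at the 3 times, and Bmi1, a subunit of the other Polycomb complex, 11.01, 11.08, 11.17 and 11.15. All 13 Trithorax and demethylase genes were measured and 0 passed 1.5-fold, with ratios from −0.27 to 0.42. The highest of these, chosen after its values were seen, was that of Kdm6b, a demethylase of the Polycomb mark, at 3 h. Its signals were 8.201 in control cells and 7.93, 8.35 and 8.63.

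Of 17 upstream regulators, 9 were measured and 0 passed 1.5-fold. Rara, a retinoic acid receptor gene, had signals of 7.63 in control cells and 7.38, 7.10 and 7.61 at 0.5, 1 and 3 h, and its ratio at 1 h was −0.53, the lowest of the list. Cdx2, a posterior regulator of HOX genes chosen after its values were seen, lay near the floor, with a ratio of 0.58 at 0.5 h and signals from 5.17 to 5.82. Of 11 listed noncoding RNAs of the clusters 3 had a value, Hoxa11os, Hoxb5os and Hoxd3os1, and these were under the floor on every array. Gm15050, a noncoding RNA gene within the RefSeq span of Hoxa3 and chosen after its values were seen, was measured, at 7.56 in control cells and 7.71, 7.73 and 7.61 at the 3 times.

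Outside the clusters, 12 of 15 nearest protein-coding neighbours with a value were measured, where 64.2% of all genes were, and 0 passed 1.5-fold, near the background given above. The lowest ratio was that of Snx11 beside Hoxb, −0.44 at 1 h, and the highest that of Skap2 beside Hoxa, 0.21 at 0.5 h. Evx1, the homeobox gene next to Hoxa13, was under the floor between 4.598 and 4.90. Lnpk and Mtx2, which flank the Hoxd cluster, had signals of 9.05 and 9.67 in control cells.

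The DLX and MSX homeobox genes, which lie outside the HOX clusters, had 7 of 9 members measured. At 1 h 1 of 7 was at least 1.5-fold higher, where 0.948% of all genes were, and this was Dlx2, with signals of 6.28 in control cells and 6.30, 7.11 and 6.07 at 0.5, 1 and 3 h. Their median log2 ratios were 0.03, 0.17 and −0.08. Whether they differ from the HOX genes was not tested.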

How the data were processed

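Per the labels' protocols, total RNA with an integrity number above 9.5 was labelled from 500 ng with a 3′ IVT Express kit. The authors deposited 1 log2 value per probe set and array. The range of the values gave the log base, while how probe sets were summarised and scaled is not given here.

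The array holds 45101 probe sets. Of these, 34958 had 1 symbol in the annotation, 932 had several and 9211 were unlisted. Current RefSeq symbols replaced old ones for the 34754 whose Entrez number matched. The 33 HOX genes had 48 probe sets, and 11 of them had more than 1. The brightest on average stood for a gene. No sample was left out.

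Genes past a fixed size were counted, since single arrays allow no test. The size rule was tested on simulated data. The members and gene lists were chosen with earlier results of these data known. Named genes were all HOX members, list members past 1.5-fold or among the 4 with the highest mean signal in their list, and the nearest neighbours of each cluster, and the text says where others were chosen. Alternatives covered the floor, the scaling, the choice of probe sets, the arrays that had to be above the floor, the fold and the reference array. RefSeq tables gave names, gene order and promoter windows. Quantile and cyclic loess scaling came from limma 3.58.1 in R 4.3.3, and all else from Python 3.11.15 (pandas 2.3.3, numpy 2.4.6).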

Additional observations from a re-analysis of the deposited data

How the results depend on the processing

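In 9 settings the floor, the arrays that had to pass it, the scaling, the probe sets or the reference were changed. Sign changes were counted only for ratios past 1.5-fold: Hoxb6 at 0.5 and 1 h, Hoxa5 at 1 and 3 h, and Hoxc6 at 1 h. Of these, 0 changed sign where measured. Among smaller ratios, some turned sign with the averaged arrays as the reference and others kept it. Hoxa5 at 0.5 h went from 0.14 to −0.31, and Hoxb6 at 3 h from 0.36 to −0.26. Moves were set against the SD per probe set described above, taken here over all genes with at least 2 probe sets above the floor. Ratios moved by more than this SD in 5 of 45 cases with the mean of all probe sets and in 24 of 51 with the other 3 arrays, averaged, as the reference. They did so in 0 of 51 under each other scaling. A floor leaves a ratio as it is by construction, apart from that of Hoxb2 at 0.5 h. The averaged reference includes LIPUS arrays, so it shrinks by construction any difference that the LIPUS arrays share. With the floor at the 25th percentile 27 members were above it (85.9% of all genes were), of which 8 belonged to Hoxa, 8 to Hoxb and 4 to Hoxd. At that floor 2 members passed 1.5-fold at 0.5 h, as they did without a floor. With the floor at the 75th percentile 7 members were above it (38.4% of all genes were), with 2 of Hoxa, 0 of Hoxb and 0 of Hoxd. Hoxb6 was then not measured, so 0 members passed 2-fold at 1 h, and 0, 1 and 0 passed 1.5-fold at 0.5, 1 and 3 h. A fold of 3 left 0 members at 1 h, and a fold of 1.5 gave 1, 3 and 1 at the 3 times. With the mean of all probe sets 1 member passed 1.5-fold at 1 h and 0 at 3 h. With the averaged arrays as the reference 0 members passed 2-fold at 1 h, and 0, 1 and 0 passed 1.5-fold at 0.5, 1 and 3 h. The share of all genes past 2-fold and 1.5-fold was taken with the main settings only. Counts of members past a fold under the other settings therefore have no background of their own. With median centring, quantile normalization or cyclic loess Hoxb6 stayed past 2-fold at 1 h, at 1.07, 1.03 and 1.05 on the log2 scale. Having 1 array per group bounds how precise any value can be, and members near the floor are the least precise. No paired analysis was possible because each group has 1 array.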
